A study of Homo sapiens with 2 samples.

Results

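Semaphorins are secreted or membrane-bound guidance proteins, and plexins and neuropilins are the receptors that read them. All protein-coding genes of these families were taken by symbol from the GENCODE 29 annotation, giving 31 genes (20 semaphorins as ligands, 9 plexins and 2 neuropilins as receptors) of 60774 gene identifiers in the table. RNA was sequenced in 2 libraries of MDA-MB-231, a line from human breast cancer that lacks the estrogen and progesterone receptors and HER2 amplification. The control library (vector control, GP in the table) was set against 1 labelled OE-YWHAB, for over-expression of YWHAB, which encodes the adaptor protein 14-3-3 beta. Each group had 1 library, so nothing below has a replicate check, no test was run, and a difference between the libraries is not shown to be one between the conditions. The labels give both groups the same line and medium with fetal bovine serum, and their protocol fields also hold text on insulin, dexamethasone and isobutylmethylxanthine for fat cell differentiation and on harvested retinas. The sources used here do not give the vector, its promoter, or whether the cells were a clone or a pool.

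Semaphorins steer axons, endothelial cells and tumour cells by acting on adhesion and the cytoskeleton. Most secreted class 3 semaphorins bind a neuropilin, which holds the ligand while a class A or class D plexin carries the signal inward. Membrane-bound semaphorins mostly bind plexins directly. The inner part of a plexin switches off small GTPases of the Ras family. In Drosophila a 14-3-3 protein binds the phosphorylated tail of a plexin and limits that activity. The series title concerns migration and invasion, and this receptor system is one of those known to act on both.

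The control library held 12375999 fragments and the OE-YWHAB library 13810668, worked out from the FPKM values (fragments per kilobase of gene, scaled by library size). YWHAB itself was at 239 FPKM in the control library and 336 in the OE-YWHAB library, a ratio of 1.41 (95% counting interval 1.36 to 1.45). Its difference in log2(FPKM + 1) was 0.49, under the 2-fold limit used below. Over all genes compared, 27.8% had such an interval above equal levels. Of 9 genes listed as high in this line, all were measured, with vimentin (VIM) at 736 and 861 FPKM. Of 8 genes listed as low, ESR1, PGR, FOXA1 and CDH1 had at most 7 fragments in either library, whereas KRT19 was at 460 and 551 FPKM and ERBB2 at 32.8 and 49.97. GATA3, at 3.14 and 3.86 FPKM, and EPCAM, at 1.21 and 1.53, were also measured. Summed FPKM in the control and OE-YWHAB libraries was 0.455 and 0.422 over 5 adipocyte markers and 3.65 and 2.59 over 7 leukocyte markers. The 8 endothelial markers, of which 5 were measured, summed to 217 and 196 FPKM through ESAM, EGFL7, TIE1 and PECAM1, while CLDN5 and TEK had at most 4 fragments. TIE1 was 2-fold lower, at 33.2 and 13.1 FPKM. CDH5 went the other way, at 0.676 and 1.55 FPKM (ratio 2.29, interval 1.30 to 4.20) from 18 and 46 fragments. The 8 neuron and glia markers summed to 43.3 and 42.6 FPKM, mostly MBP at 36.8 and 37.8. Their part in the results was not tested.

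Of the 31 genes, 25 averaged at least 1 FPKM across the 2 libraries and were compared. A gene was called 2-fold higher or lower when log2(FPKM + 1) differed by at least 1, a scale that understates changes of low genes. PLXNA1 and PLXNA2, both class A plexins, were 2-fold higher in the OE-YWHAB library, and SEMA4A was 2-fold lower. Over all 13420 genes compared, 0.686% were 2-fold higher and 1.97% 2-fold lower. The differences were 1.23 for PLXNA1, 1.03 for PLXNA2 and -1.01 for SEMA4A, and SEMA3B just missed it at -0.92. With correction for length and GC content the calls were 1 higher (PLXNA1) and 2 lower (SEMA3B and SEMA4A). In that setting 2.04% of 13332 genes were 2-fold higher and 1.30% 2-fold lower.

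**Figure D1:**
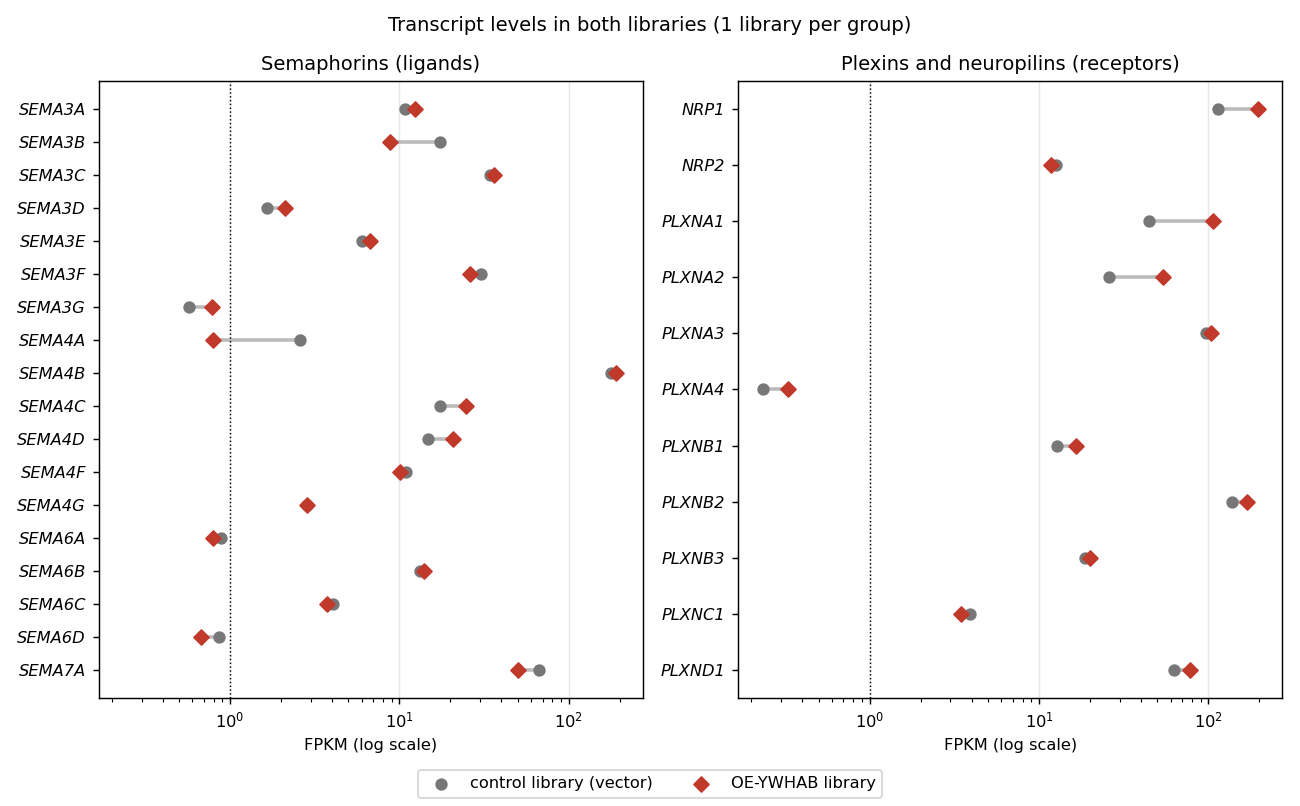
FPKM of each semaphorin (left) and each plexin and neuropilin (right) on a log axis, with 1 point per library, a grey circle for the control library and a red diamond for the OE-YWHAB library. The dotted line marks 1 FPKM, and genes at 0 in both libraries are left out. PLXNA1 and PLXNA2 lie well to the right in the OE-YWHAB library, and SEMA4A and SEMA3B to the left.

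PLXNA1 transduces class 3 and class 6 semaphorin signals and was the receptor with the widest gap. It was at 44.5 FPKM in the control library and 106 FPKM in the OE-YWHAB library, from 1993 and 5291 fragments. The ratio of the libraries was 2.38 (95% counting interval 2.26 to 2.51). The gene (ENSG00000114554) is on the plus strand of chromosome 3 (GRCh38), from 126988594 to 127037392. It ranked 16 from the top among protein-coding genes by difference. PLXNA2, a receptor for SEMA6A that also pairs with neuropilins, was at 26.0 FPKM in the control library and 54.0 FPKM in the OE-YWHAB library. Its ratio was 2.08 (interval 1.92 to 2.25) from 907 and 2102 fragments. The gene is on the minus strand of chromosome 1, from 208022242 to 208244320, so this pair of higher genes does not share a locus.

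The other class A plexins did not show the same gap. PLXNA3, which is best known as a SEMA3F receptor, was at 97.4 FPKM in the control library and 104 FPKM in the OE-YWHAB library. Its ratio was 1.07 (interval 1.01 to 1.14), and its difference of 0.10 turned to -0.14 with correction for GC content and the length of the longest coding transcript. PLXNA4 was below the level compared, with 19 and 30 fragments. The intervals of PLXNA1 and PLXNA2 both lie above that of PLXNA3. These intervals cover counting error only. Among the 4 class A genes, at most 0.0936% of the 50-base stretches of a transcript occur in another gene of the 3 families. In PLXNA3 2.03% occur in any other gene. The reads themselves were not examined.

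The sequences upstream of the RefSeq starts of the class A plexins are shown to set the pair that was higher beside PLXNA3. Each is the 250 bases before the start in GRCh38.p14, 5′ to 3′ on the gene's strand, and capitals mark the GC box GGGCGG or its reverse complement.
PLXNA1, chr3:126982865-126983114, plus strand: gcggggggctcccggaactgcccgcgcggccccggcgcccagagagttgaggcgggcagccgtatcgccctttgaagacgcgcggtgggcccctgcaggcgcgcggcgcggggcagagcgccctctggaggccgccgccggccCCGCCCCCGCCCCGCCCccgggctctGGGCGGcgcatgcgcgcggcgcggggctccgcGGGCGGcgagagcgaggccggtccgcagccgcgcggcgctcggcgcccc
PLXNA2, chr1:208244385-208244634, minus strand: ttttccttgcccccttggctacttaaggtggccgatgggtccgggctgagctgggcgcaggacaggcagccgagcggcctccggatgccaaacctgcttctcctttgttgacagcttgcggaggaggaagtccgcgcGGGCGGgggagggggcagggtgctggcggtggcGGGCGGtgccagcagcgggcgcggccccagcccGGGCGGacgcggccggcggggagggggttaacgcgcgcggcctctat
PLXNA3, chrX:154458031-154458280, plus strand: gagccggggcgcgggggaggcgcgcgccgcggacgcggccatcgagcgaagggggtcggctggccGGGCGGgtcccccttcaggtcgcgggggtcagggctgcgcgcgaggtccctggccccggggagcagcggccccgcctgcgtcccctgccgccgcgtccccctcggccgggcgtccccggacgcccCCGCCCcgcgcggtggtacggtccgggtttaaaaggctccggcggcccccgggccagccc
The GC box was found at 5 positions for PLXNA1, 3 for PLXNA2 and 2 for PLXNA3. All 3 windows thus hold at least 1, as do 42.6% of 35116 RefSeq promoter windows of this length. No share is given for windows of similar GC content. GC content was 84.4%, 72.4% and 82.8%, against a median of 58% over all windows. CpG pairs numbered 46, 27 and 41, against a median of 11. The letters TGANTCA (AP-1), CACGTG (E-box) and CCAAT, searched on both strands, were in none of the 3 windows, and 6.57%, 6.34% and 32.0% of all windows hold them. The RefSeq start of PLXNA1 lies 5479 bases before the GENCODE 29 start of the gene, and the start used in these cells was not measured. Of the 31 genes, 27 had a promoter entry, with several starts each for SEMA4A and SEMA3B.

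Among the other plexins the values were closer together. PLXNB2, a receptor for SEMA4C and the most abundant plexin per length in both libraries, was at 137 FPKM in the control library and 169 FPKM in the OE-YWHAB library. PLXND1, the receptor of SEMA3E, was at 62.6 and 77.6 FPKM, a ratio of 1.24 (interval 1.14 to 1.35). PLXNB1, the receptor of SEMA4D, was at 12.8 and 16.5 FPKM, a ratio of 1.29 (interval 1.11 to 1.501). For these 3 genes the interval lay above equal levels, but none came near the 2-fold limit. PLXNB3 was at 18.7 and 20.1 FPKM with an interval of 0.946 to 1.22 that spans equal levels. It shares 20.4% of its exon bases with SRPK3 on the same strand, which was at 0.220 and 0.316 FPKM. PLXNC1, a receptor for SEMA7A, was at 3.93 and 3.47 FPKM with an interval of 0.639 to 1.23, and was the 1 plexin measured with a lower value in the OE-YWHAB library.

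NRP1 was the main neuropilin in both libraries and the third highest receptor by difference. This co-receptor of class 3 semaphorins and of VEGFA was at 113 FPKM in the control library and 196 FPKM in the OE-YWHAB library. The ratio was 1.72 (interval 1.66 to 1.79) from 4023 and 7744 fragments, and the difference of 0.78 did not pass the 2-fold limit. Of all genes compared, 1.89% had at least this difference. NRP2, which binds SEMA3F and VEGFC, was at 12.6 and 11.7 FPKM, with an interval of 0.787 to 1.09 that spans equal levels. NRP1 exceeded NRP2 by 8.98 times in FPKM in the control library and by 16.7 times in the OE-YWHAB library. Per kilobase of the longest coding transcript, NRP1 exceeded NRP2 by 15.2 and 28.4 times.

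**Figure D2:**
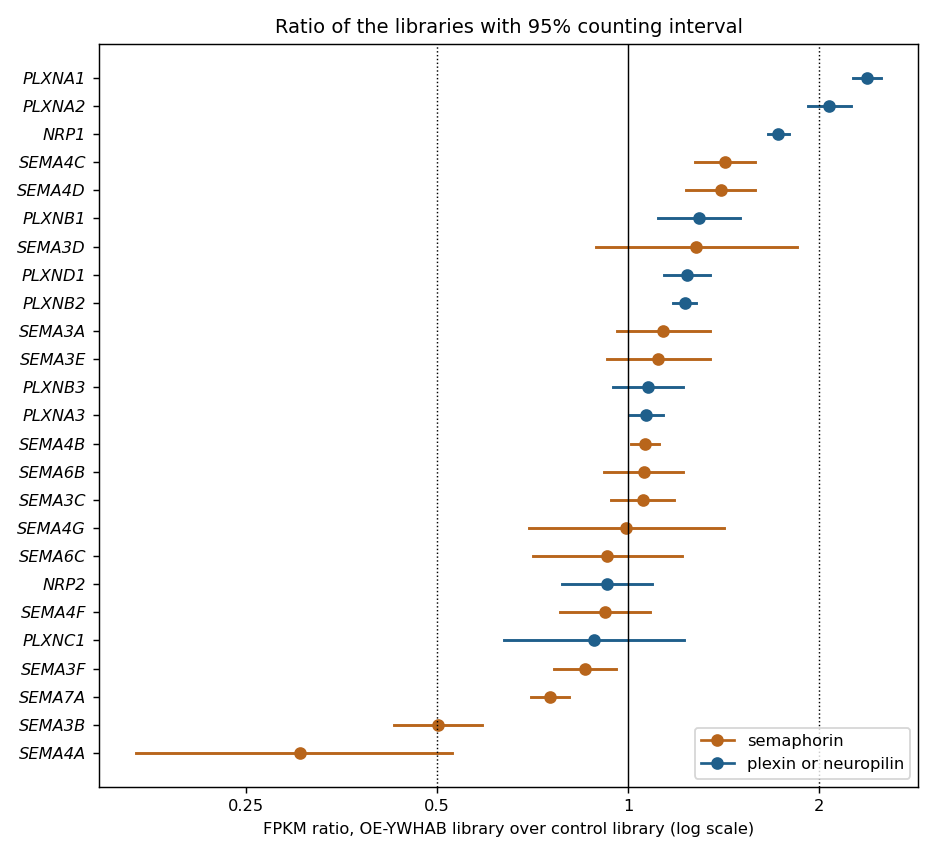
Ratio of FPKM in the OE-YWHAB library over the control library for the 25 genes compared, on a log axis, with a point for the ratio and a bar for its 95% counting interval. Dotted lines mark ratios of 0.5 and 2. The top 3 genes are the receptors PLXNA1, PLXNA2 and NRP1, and the bottom 4 are the ligands SEMA4A, SEMA3B, SEMA7A and SEMA3F.

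The lowest ligand by difference was SEMA4A, a membrane semaphorin known for co-stimulation of T cells. It was at 2.60 FPKM in the control library and 0.790 FPKM in the OE-YWHAB library. These values rest on 53 and 18 fragments, and the ratio was 0.304 (interval 0.168 to 0.528). The call was lost when both libraries were rescaled to equal FPKM totals (-0.98), and with a pseudocount of 0.1 the difference was -1.599. With that pseudocount 3.51% of all genes compared were 2-fold lower, against 1.97% as reported. Its mean is too low for the comparison from 5 FPKM. SEMA3B, a secreted semaphorin studied as a tumour suppressor, was at 17.5 FPKM in the control library and 8.77 FPKM in the OE-YWHAB library. Its ratio was 0.503 (interval 0.429 to 0.588) from 444 and 249 fragments. Its difference of -0.92 passed the limit with correction for length and GC content (-1.04), where 1.30% of all genes were 2-fold lower.

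SEMA3F, a secreted relative of SEMA3B that acts through NRP2, lies near it on chromosome 3. The genes span 50155045 to 50189075 and 50267558 to 50277546, both on the plus strand (GRCh38), with 0.0785 Mb between them. SEMA3F was at 30.3 FPKM in the control library and 25.9 FPKM in the OE-YWHAB library, a ratio of 0.857 (interval 0.765 to 0.959). Both genes were lower in the OE-YWHAB library, and their intervals do not overlap. SEMA3F exceeded SEMA3B by 1.73 times in FPKM in the control library and by 2.96 times in the OE-YWHAB library. This ratio between genes depends on the length used: per kilobase of the longest coding transcript it was 1.11 and 1.90. SEMA7A, a lipid-anchored semaphorin that binds PLXNC1 and beta-1 integrin, was at 66.9 and 50.3 FPKM. Its ratio was 0.753 (interval 0.702 to 0.806), and it was the second most abundant ligand in both libraries.

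The remaining class 3 ligands stood near equal levels. SEMA3A, SEMA3C, SEMA3D and SEMA3E lie within 4.44 Mb of chromosome 7, from 80742538 to 85186855. SEMA3C, which signals through neuropilins and PLXND1, was at 34.3 FPKM in the control library and 36.1 FPKM in the OE-YWHAB library. SEMA3A, the classic growth cone repellent that needs NRP1, was at 10.8 and 12.3 FPKM. SEMA3E was at 6.003 and 6.71 FPKM and SEMA3D at 1.64 and 2.10 FPKM. All 4 values were somewhat above those of the control library, and all 4 intervals span equal levels. SEMA3G was below the level compared, at 0.571 and 0.785 FPKM.

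Within class 4, SEMA4C and SEMA4D, ligands of B-type plexins, were above the control library, unlike SEMA4A. SEMA4C was at 17.3 FPKM in the control library and 24.6 FPKM in the OE-YWHAB library, a ratio of 1.42 (interval 1.27 to 1.59). SEMA4D, also called CD100, was at 14.8 and 20.8 FPKM, a ratio of 1.40 (interval 1.24 to 1.59). Their receptors PLXNB2 and PLXNB1 were 1.23 and 1.29 times as high in the OE-YWHAB library, so ligand and receptor stood on the same side in both pairs. SEMA3F stood opposite PLXNA3, whose sign turned with correction for the longest coding transcript and GC content. SEMA3C stood opposite NRP2, and both of their intervals span equal levels. Other measured pairs stood on the same side, such as SEMA3F with NRP2 and SEMA7A with PLXNC1, all lower. In those pairs the NRP2 and PLXNC1 intervals span equal levels. SEMA6D, a ligand of PLXNA1, was below the level compared. Whether ligands and receptors moved together was not tested. SEMA4B was the most abundant ligand, at 179 and 190.0 FPKM, with a ratio of 1.06 (interval 1.01 to 1.12). SEMA4F was at 11.0 and 10.1 FPKM and SEMA4G at 2.86 and 2.85 FPKM, both with intervals that span equal levels. SEMA4G shares 22.3% of its exon bases with MRPL43 on the opposite strand (62.0 and 55.3 FPKM). Its level is uncertain if reads were counted without strand, which the sources leave unsaid.

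Class 5 and class 6 ligands, which are transmembrane proteins, were low or close to equal. SEMA6B was at 13.3 FPKM in the control library and 14.1 FPKM in the OE-YWHAB library, and SEMA6C at 4.03 and 3.74 FPKM. SEMA6A, a ligand of PLXNA2, had 20 fragments in each library, and SEMA6D, a ligand of PLXNA1, had 32 and 28. Both of these ligands were under 1 FPKM in both libraries. SEMA5A and SEMA5B were listed at 0 in both libraries, where 3 fragments would give at most 0.0769 FPKM over the mean transcript length of either gene.

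The receptors stood higher as a group than the ligands in the OE-YWHAB library relative to control, a gap that has no test with 1 library each. The median difference was 0.30 over 10 measured receptors and 0.07 over 15 measured ligands, against 0.03 over all genes compared. Counting intervals were wholly above equal levels in 7 receptors and below in 0, while 3 ligands were above and 4 below. Such intervals are common here: 27.8% of all genes compared lay above equal levels and 21.8% below. An interval narrows as fragments rise, and these shares are over genes not matched to the members for fragments. Of the receptors 8 had a positive difference, of which PLXNA3 and PLXNB3 turned negative with correction for the longest coding transcript, and PLXNB3 also with correction for mean length. Summed FPKM was 529 and 758 over the 11 receptors in the control and OE-YWHAB libraries, and 414 and 412 over the 20 ligands. In bulk RNA, fewer cells making a transcript and less of it per cell cannot be told apart.

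**Figure D3:**
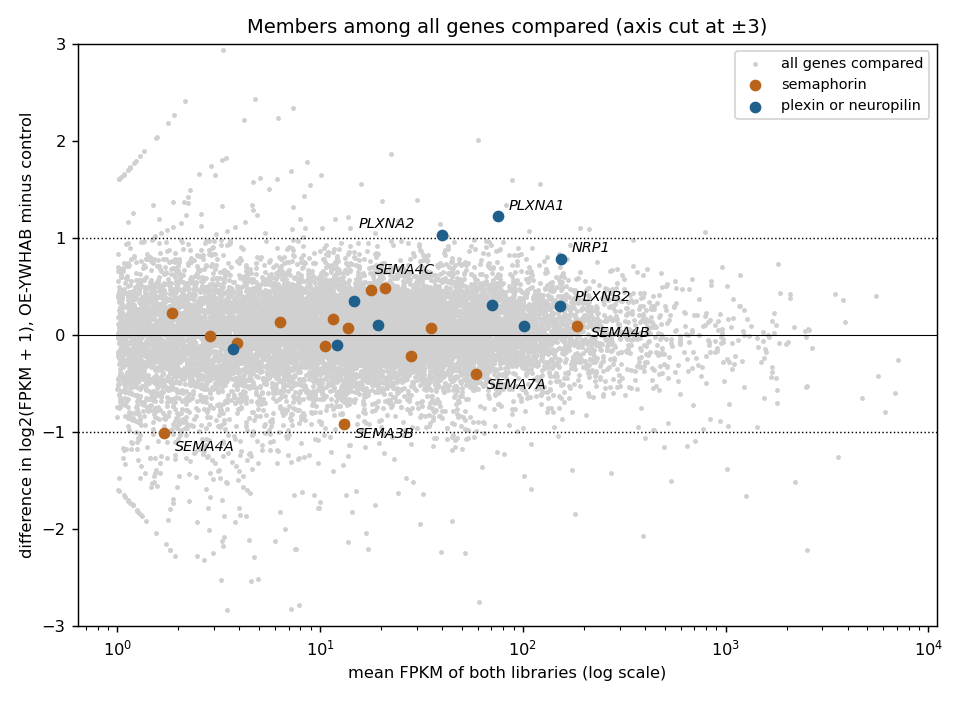
Difference in log2(FPKM + 1), OE-YWHAB minus control, against mean FPKM on a log axis for all 13420 genes compared (grey, cut at differences of 3), with semaphorins in orange and plexins and neuropilins in blue. Dotted lines mark the 2-fold limit. PLXNA1 (1.23), PLXNA2 (1.03) and NRP1 (0.78) lie along the upper edge of genes of similar level, and SEMA4A (-1.01) and SEMA3B (-0.92) near the lower limit.

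Transcript length moved with this group contrast. In 5 equal groups of protein-coding genes ordered by longest coding transcript, the median difference went from -0.07 in the shortest to 0.14 in the longest, which starts at 5841 bases. The longest coding transcripts of PLXNA1 and PLXNA2 have 9066 and 11444 bases, while those of SEMA3B and SEMA4A have 2958 and 3300. In that longest group 0.652% of 2302 genes were 2-fold higher and 0.304% 2-fold lower. With correction for mean transcript length and GC content the receptor median was 0.22 and the ligand median turned to -0.054. With correction for the longest coding transcript and GC content, added after seeing the data, they were 0.12 and -0.066. The median of all genes with an annotated coding transcript was then 0.06. PLXNA1 kept its call in both, at 1.06 and 1.004, and PLXNA2 lost it in both, at 0.94 and 0.82, and also with the median ratio set to 0 (0.98). With correction for mean length, 2.04% of 13332 genes, coding and non-coding, were 2-fold higher. With correction for the longest coding transcript it was 0.374% of 11512 genes, all with an annotated coding transcript. Without correction it was 0.295% of 11518 protein-coding genes, so these 2 corrected shares are not over like sets. PLXNA3 (10885 bases) was at 0.10 as reported and at -0.14 with correction for the longest coding transcript. The part of length in these differences was not tested.

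**Figure D4:**
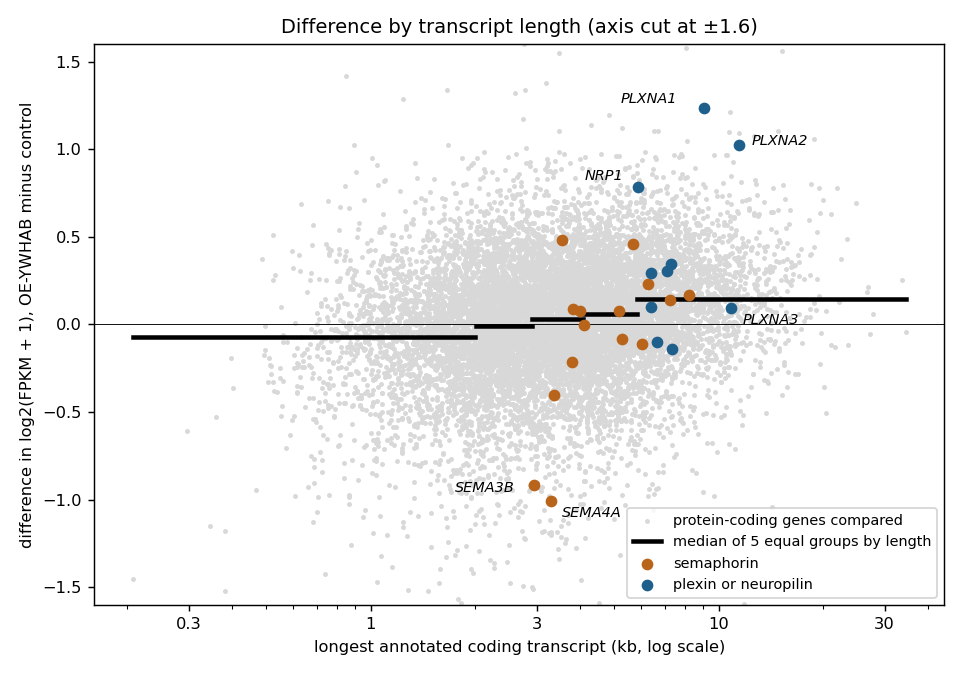
Difference in log2(FPKM + 1), OE-YWHAB minus control, against the longest annotated coding transcript in kb on a log axis, for protein-coding genes (grey, cut at differences of 1.6), semaphorins (orange) and plexins and neuropilins (blue). Black bars are medians of 5 equal groups by length, from -0.07 to 0.14. PLXNA1, PLXNA2 and NRP1 lie far above the bar at their length, and PLXNA3 lies just below it.

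The make-up of the plexin transcripts differed between the libraries. The lengths behind the FPKM values are near the mean over annotated transcripts (1635 bases for PLXNA3, 3615 for PLXNA1), which include many short ones, so shares were also computed per kilobase of the longest coding transcript. PLXNA1 made up 11.0% of summed plexin FPKM in the control library and 19.2% in the OE-YWHAB library. Per longest coding transcript it made up 16.5% and 27.2%. PLXNA1 and PLXNA2 together made up 17.5% and 29.04% of summed FPKM, or 22.4% and 35.8% per longest coding transcript. PLXNB2 remained first on both scales, at 34.03% and 30.6% of summed FPKM. The order of PLXNA1 and PLXNA3 depends on the length used: PLXNA1 over PLXNA3 was 0.458 and 1.02 in FPKM in the control and OE-YWHAB libraries, but 1.21 and 2.70 per longest coding transcript.

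**Figure D5:**
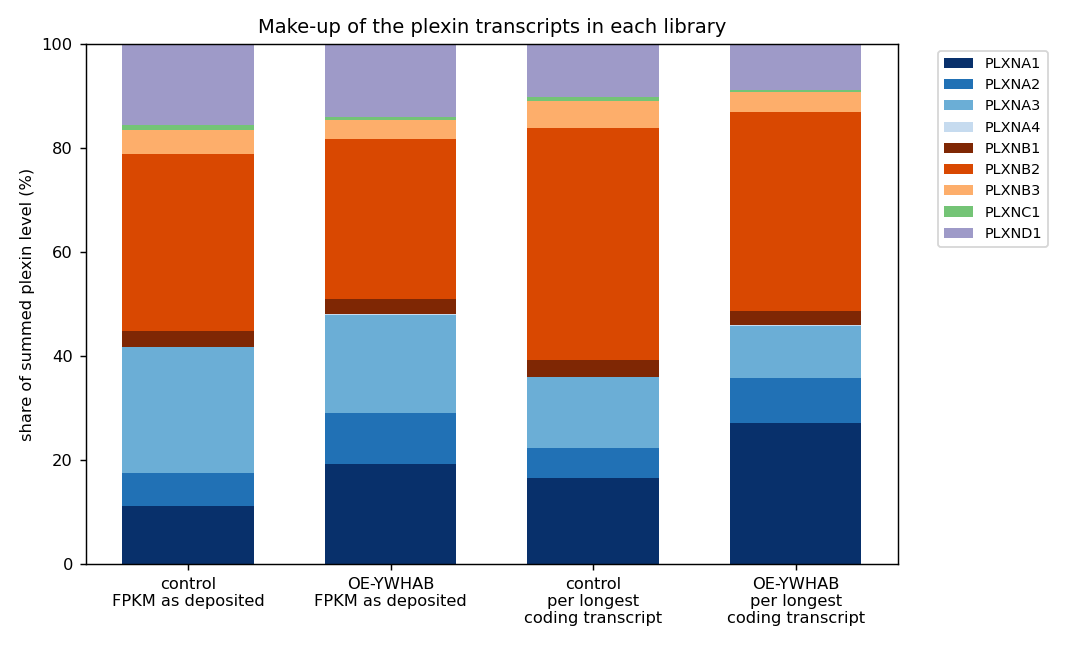
Share of the summed plexin level (%) taken by each of 9 plexins in the control and OE-YWHAB libraries, as deposited FPKM (left pair of bars) and per kilobase of the longest coding transcript (right pair). The dark blue PLXNA1 segment is larger in the OE-YWHAB library on both scales, 19.2% against 11.0% and 27.2% against 16.5%.

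Genes that share receptors with the semaphorins or process them were also counted, beside 0.686% 2-fold higher and 1.97% 2-fold lower over all genes compared. Of 8 VEGF ligands and receptors 5 were measured and 0 passed the 2-fold limit. VEGFA, an NRP1 ligand, was at 399 and 453 FPKM, VEGFC at 38.4 and 36.0, placental growth factor PGF at 15.5 and 22.4, and the receptor KDR at 2.53 and 1.61. Of 9 proteases that cleave or shed semaphorins 6 were measured and 0 passed. FURIN, which cleaves class 3 semaphorins, was at 72.0 and 93.9 FPKM, ADAM10 at 96.4 and 107, ADAM9 at 246 and 227, and PCSK7 at 15.9 and 17.3.

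Other guidance families were counted beside the semaphorin system. Of 43 netrin, slit, repulsive guidance, ephrin and Eph genes and their receptors 20 were measured, with 0 2-fold higher, 1 2-fold lower and a median of 0.07. The lower one was NTN4, a netrin of basement membranes, at 19.7 FPKM in the control library and 7.72 in the OE-YWHAB library. EFNA1, an ephrin ligand, was at 11.1 and 6.84 FPKM, RGMB, a co-receptor for bone morphogenetic proteins, at 25.1 and 38.2, and ROBO4, a roundabout receptor, at 61.4 and 92.2. The semaphorin system had 2 higher and 1 lower of 25, and the difference between these shares was not tested. Over all genes compared 0.686% were 2-fold higher and 1.97% 2-fold lower. At such shares, 0 higher genes among 20 does not set these families apart.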

How the data were processed

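RNA-seq values of 2 MDA-MB-231 libraries were used, 1 per group, grouped by the labels. The authors deposited FPKM values for 60774 Ensembl gene identifiers, per the labels. Alignment software HISAT2 (2.0.5) and build hg38 are listed in the submitters' processing notes. The sources used here do not state the counter, the annotation release or the use of strand. GENCODE 29 supplied symbols, lengths and coordinates (GRCh38) for 96.3% of the identifiers. Total fragments were the commonest value implied by genes with 1 annotated transcript, and 26769 of 26770 value pairs above 0 were then whole fragments within a relative tolerance of 1e-09. Where several lengths fit, the one nearest the mean transcript length was taken. Counting intervals (95%, Clopper-Pearson, from how a gene's fragments divide between the libraries) and the floor of 3 fragments cover counting error only. The calculation was tested on simulated data. No p-value is given with 1 library per group. Genes named from the pathway lists are the 4 measured ones with the largest absolute difference, within each list reported, and others were named after their values were seen. The members and lists were chosen with earlier results of these data known. The correction for length and GC content subtracts a cubic fit over protein-coding genes. Python 3.11.15, pandas 2.3.3, numpy 2.4.6 and scipy 1.17.1 were used, and promoter sequences are from RefSeq (GRCh38.p14). Genes listed as acting downstream of the receptors, and 1 marker list, are not reported here.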

Additional observations from a re-analysis of the deposited data

How the results depend on the processing

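The 7 other settings first listed and 1 added after seeing the data (correction for the longest coding transcript and GC content) gave these changes. The number of 2-fold higher genes was 2 in the reported setting and 1 with the median ratio set to 0, with correction for length and GC content and with the added correction. The number of 2-fold lower genes was 1 as reported, 0 among genes averaging 5 FPKM or more and with equal FPKM totals, and 2 with correction for length and GC content. The shares over all genes moved too. With correction for length and GC content 2.04% were 2-fold higher and 1.30% 2-fold lower, against 0.686% and 1.97% as reported. They were 0.635% and 2.15% with the median ratio set to 0, and 1.65% and 3.51% with a pseudocount of 0.1. The added correction gives values only to 11512 genes with an annotated coding transcript. Of these, 0.374% were 2-fold higher and 1.18% 2-fold lower. Over 11518 protein-coding genes without correction, the shares were 0.295% and 1.45%. The ligand median of 0.07 turned to -0.054 with correction for length and GC content and to -0.066 with the added correction, and the receptor median of 0.30 was 0.12 with the added correction. The causes were not tested. Of the 25 genes compared 21 kept the sign of their difference under every setting that gave a value. PLXNA3, PLXNB3, SEMA4G and SEMA6B turned sign in at least 1. Genes under a mean of 5 FPKM have no value with that filter. No paired analysis was possible because each group had 1 library. Among the 25 genes compared, depth limits SEMA4A most, with 18 fragments in the OE-YWHAB library.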
